A study of Mus musculus with 12 samples.

Results

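The 10 genes described here encode the 6 peroxiredoxins of the mouse (Prdx1, Prdx2, Prdx3, Prdx4, Prdx5 and Prdx6), both thioredoxins (Txn1 and Txn2) and the thioredoxin reductases Txnrd1 and Txnrd2. They were named as a gene family with earlier results of these data known, and taken by symbol from the 24982 gene symbols that each library lists, and each of the 10 was found in every library. RNA was taken from B lymphocytes of the spleen when the mice were 6 weeks old. The 12 libraries form 3 genotypes with 4 biological replicates each: WT mice (C57BL/J6), Eμ-Myc transgenic mice, and Eμ-Myc mice that also lack PRPS2 (Eμ-Myc; PRPS2 KO). The knockout mice thus carry the same Eμ-Myc transgene as their comparison group, and no PRPS2 knockout without the transgene was analysed here. In Eμ-Myc mice the immunoglobulin heavy-chain enhancer drives Myc in the B lineage, and the strain develops B-cell lymphoma. PRPS2 is an isoform of phosphoribosyl pyrophosphate synthetase, the enzyme that turns ribose 5-phosphate into the sugar donor of nucleotide synthesis. The series asked which genes Myc deregulates in these cells, and whether redox changes after loss of PRPS2 bear on them.

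Peroxiredoxins are abundant enzymes that reduce hydrogen peroxide and other peroxides with a reactive cysteine. The oxidised enzyme is in most cases restored by a thioredoxin, and the thioredoxin in turn by a thioredoxin reductase, a selenocysteine protein that draws its electrons from NADPH. Prdx1, Prdx2, Txn1 and Txnrd1 serve the cytosol, Prdx3, Txn2 and Txnrd2 the mitochondria, and Prdx4 the endoplasmic reticulum and the secretory path. Prdx5 is found in mitochondria, peroxisomes and cytosol, and Prdx6 works with glutathione in place of thioredoxin and also has phospholipase activity.

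The deposited value of a gene is a coverage, read here as a level per length because it hardly followed exonic length over genes; the files do not state this, and the levels, ratios and shares compared between genes rest on it. All levels below are this coverage after scaling the libraries to one another (scaled coverage). How many reads each value stands for is not known, so the precision of a level rests on the 4 libraries of its group. Summed coverage ran from 1277305.5 to 1885768.9 per library, and 14900 to 16231 genes were above 0. Scaled coverage of Prps2 was 18.8, 17.1, 16.3 and 15.5 in the knockout libraries 1 to 4, against 198 to 286 in Eμ-Myc and 103 to 144 in WT, as the labels say. Myc read 1558 to 2295 in Eμ-Myc and 232 to 355 in WT. Of 10 B-cell markers, all were at 1 or more in every WT and Eμ-Myc library. Their sum was uneven in WT, at 9023, 16406, 14337 and 8666 in libraries 1 to 4, and 8073 to 9969 in Eμ-Myc. The knockout libraries came in pairs. In libraries 3 and 4 the mature B-cell marker Fcer2a read 3.50 and 2.54 and Cr2 read 0.11 and 0.32, while in libraries 1 and 2 Fcer2a read 1039 and 842 and Cr2 67.9 and 62.4. The sum of the 10 B-cell markers differed far less, at 6874 and 7169 in knockout libraries 3 and 4 against 8672 and 8774 in libraries 1 and 2. Summed T-cell markers were 72.4 and 72.3 in knockout libraries 3 and 4 against 896 and 968 in libraries 1 and 2, and Myc was 2883 and 3136 against 1130.0 and 1731. Counts of called genes and correlations that use the knockout group are therefore also given without either pair. WT library 1 stood apart with the highest sum of myeloid markers, 26247 against 8530 to 15045 in the other WT libraries, and WT library 4 with the highest sums of T-cell (4006), NK-cell (1571) and erythroid (872) markers. Myeloid sums over 10 markers were 8530 to 26247 in WT, 5864 to 17182 in Eμ-Myc and 1389 to 16269 in the knockout group. The samples are bulk, so the levels are those of the whole isolate and not of B cells alone. Fewer cells of a type and less RNA per cell cannot be told apart.

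Of the 10 genes, 8 rose in the Eμ-Myc libraries against WT and none fell at an adjusted p under 0.05 (limma, two-sided, Benjamini-Hochberg over all genes). This contrast moved much of the transcriptome: 55.7% of 12723 genes were called, 29.0% as higher and 26.7% as lower, so single calls are common. The median log2 fold change of the 10 genes was 0.88, against -0.05 over all genes tested. Prdx4 had the largest fold of the set at 3.62, Prdx1, Prdx2, Prdx3, Txn1 and Txn2 lay between 1.82 and 2.23, the reductases changed least, and Prdx5 had the only negative estimate. The libraries of the groups did not overlap for 7 of the 10 genes, all of them higher in Eμ-Myc, where 27.3% of all genes were higher without overlap.

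**Figure D1:**
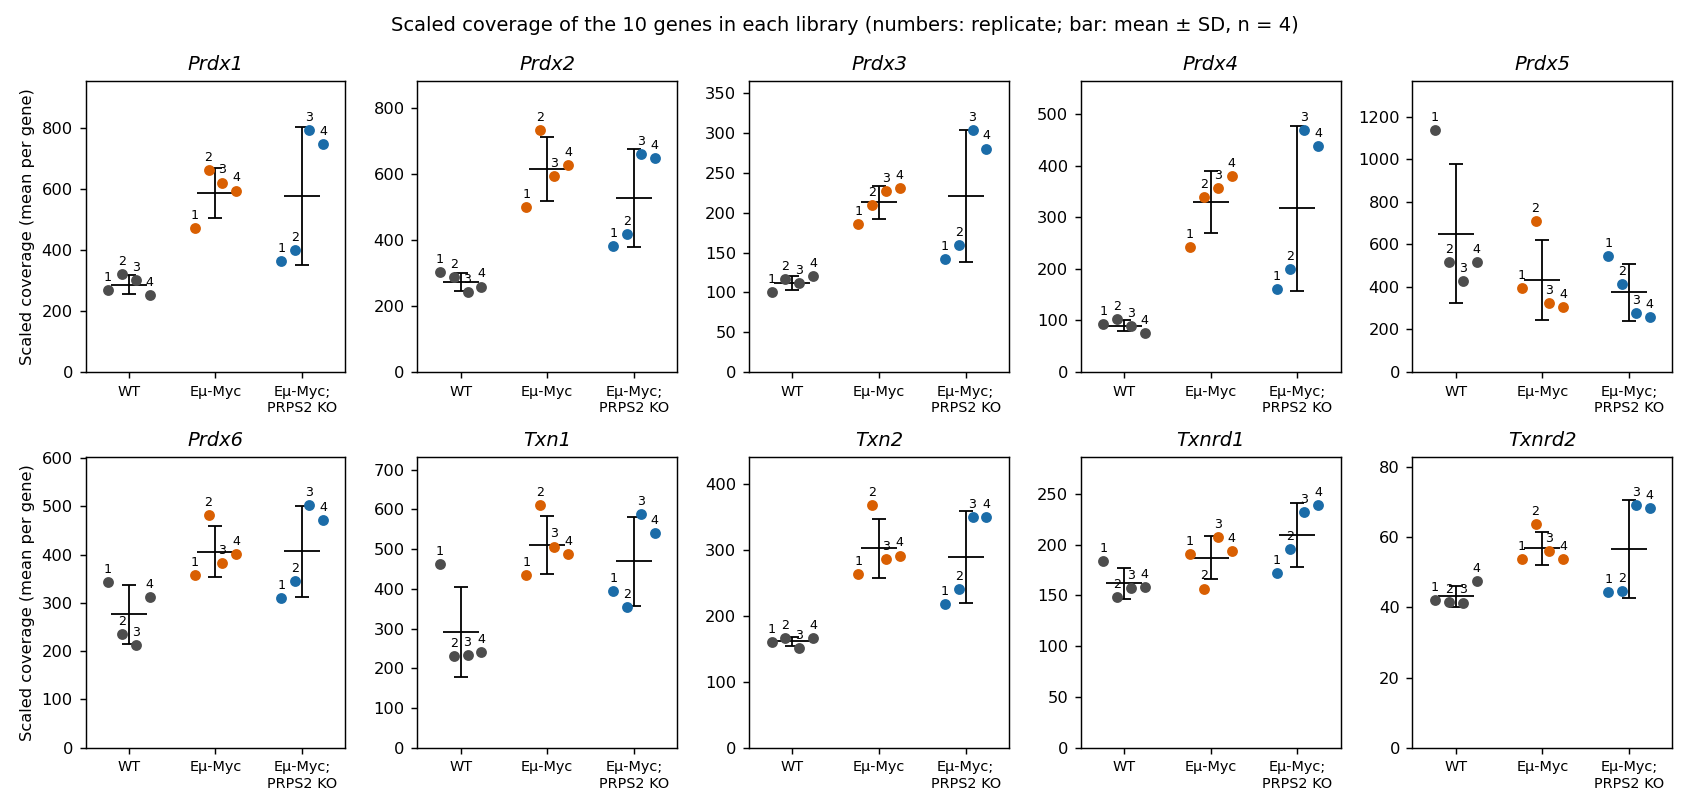
Scaled coverage (mean coverage per gene, linear axis from 0) of the 10 genes in each of the 12 libraries; points carry the replicate number, and bars show the mean ± SD of 4 libraries. Points of WT and Eμ-Myc do not overlap for 7 genes, Prdx5 and Txn1 have a high WT library 1, and knockout libraries 3 and 4 lie above 1 and 2 for all genes but Prdx5, where they lie below.

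Among the cytosolic peroxiredoxins, Prdx1 scavenges peroxide and is known to bind Myc protein. Scaled coverage of Prdx1 was 268, 322, 301 and 253 in WT libraries 1 to 4 and 472, 663, 621 and 595 in Eμ-Myc libraries 1 to 4. Every Eμ-Myc library was thus above every WT library, and Prdx1 rose 2.05-fold (95% interval 1.67 to 2.50, limma adjusted p = 1.77e-04). Prdx2, the abundant peroxiredoxin of red cells, read 304, 289.7, 243 and 259.6 in WT and 502, 736, 595 and 629 in Eμ-Myc. It rose 2.23-fold (1.82 to 2.74, limma adjusted p = 9.73e-05). The sum of erythroid markers was 79.8 to 872 in WT, highest in library 4, and 87.8 to 519.8 in Eμ-Myc, highest in library 3, and its part in the Prdx2 values was not tested. Prdx6 read 344, 235, 213 and 312 in WT and 359, 481, 382 and 402 in Eμ-Myc, with the lowest Eμ-Myc library just above the highest WT library. Its rise was smaller, 1.49-fold (1.15 to 1.93, limma adjusted p = 0.0164).

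Prdx4, which uses peroxide to feed disulfide bonds into proteins folding in the endoplasmic reticulum, changed most. It read 93.0, 102, 90.0 and 75.6 in WT and 243, 339, 358 and 381 in Eμ-Myc. The lowest Eμ-Myc library was far above the highest WT library, with a log2 fold change of 1.85 ± 0.16 (SE) and a limma adjusted p of 1.87e-05. Prdx4 made up 5.50% ± 1.16 (SD, n = 4) of the summed coverage of the 6 peroxiredoxins in WT and 12.8% ± 2.10 in Eμ-Myc. The ratio of Prdx4 to Prdx1 was 0.315 ± 0.023 in WT and 0.561 ± 0.061 in Eμ-Myc, with no overlap of the libraries.

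In the mitochondrial chain, Prdx3 and its reductant Txn2 rose by close folds. Prdx3 read 100.05, 116, 111 and 121 in WT and 186, 209.7, 227 and 231 in Eμ-Myc, a rise of 1.90-fold (1.61 to 2.23, limma adjusted p = 9.37e-05). Txn2, the mitochondrial thioredoxin that reduces Prdx3, read 159.6, 166, 152 and 167 in WT and 264, 368, 286 and 291 in Eμ-Myc. Its rise was 1.86-fold (1.56 to 2.22, limma adjusted p = 1.86e-04), and the ratio of Prdx3 to Txn2 was 0.696 ± 0.048 in WT and 0.715 ± 0.105 in Eμ-Myc. Txnrd2, the reductase of that compartment, was the lowest of the 10 genes in each group. Its values were 42.1, 41.5, 41.4 and 47.4 in WT and 53.7, 63.7, 56.1 and 53.9 in Eμ-Myc, which do not overlap. Txnrd2 rose 1.31-fold (1.13 to 1.53, limma adjusted p = 0.00767), and the call was lost when all 12 libraries shared one fit (adjusted p = 0.0615). The ratio of Txnrd2 to Txn2 was 0.267 ± 0.015 in WT and 0.190 ± 0.013 in Eμ-Myc.

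Txn1, the cytosolic thioredoxin that also donates electrons to ribonucleotide reductase, read 461, 231, 233 and 240.0 in WT and 435, 611, 507 and 487 in Eμ-Myc. WT library 1 lay above Eμ-Myc library 1, and the other WT libraries lay far below all Eμ-Myc libraries. Txn1 rose 1.82-fold (1.28 to 2.59, limma adjusted p = 0.0102), and without WT library 1 the log2 fold change was 1.11 (adjusted p = 1.96e-04) in place of 0.86. Txnrd1, the cytosolic reductase and a known target of the transcription factor NRF2, read 184, 149, 158 and 158 in WT and 191, 157, 207 and 194 in Eμ-Myc. These groups overlap, and the estimate of 1.15-fold (0.965 to 1.38) did not pass the test (limma adjusted p = 0.151). Without Eμ-Myc library 2, the lowest of its group, Txnrd1 was called higher (log2 fold change 0.29, adjusted p = 0.0335).

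Prdx5, an atypical peroxiredoxin, was the gene with a lower mean in Eμ-Myc and did not pass the test. It read 1139, 519, 429 and 515 in WT and 395, 709, 326 and 304 in Eμ-Myc, so Eμ-Myc library 2 was above 3 of the 4 WT libraries. The estimate was 0.679-fold (0.390 to 1.18) and was not called (limma adjusted p = 0.203), nor was it in any of the 16 alternatives (adjusted p 0.0609 to 0.462). The log2 fold change of -0.56 was -0.25 without WT library 1 and -0.82 without Eμ-Myc library 2. As a share of the 6 peroxiredoxins, Prdx5 made up 37.0% ± 9.20 (SD, n = 4) in WT and 16.5% ± 4.94 in Eμ-Myc, with a lowest WT share of 30.9% and a highest Eμ-Myc share of 22.6%. Prdx5 was highest in the libraries with the highest sums of the 10 myeloid markers, WT library 1 (26247) and Eμ-Myc library 2 (17182). Within Eμ-Myc and within the knockout group the order of the libraries by Prdx5 was the order by the myeloid sum. Within WT it was not beyond library 1: library 2 had the lowest sum (8530) with Prdx5 at 519, and library 4 a sum of 15045 with Prdx5 at 515. All 10 myeloid markers were at 1 or more in every library, and the part of myeloid RNA in the Prdx5 values was not tested.

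**Figure D2:**
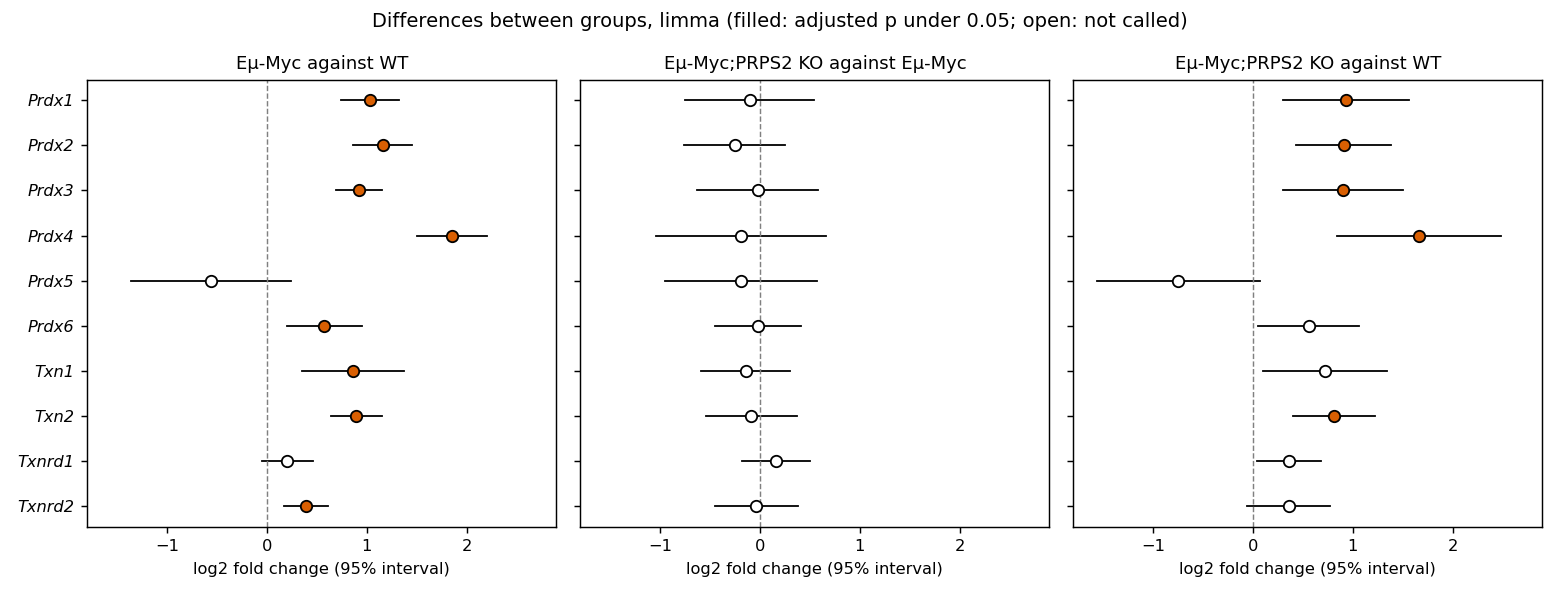
Log2 fold changes of the 10 genes with 95% intervals (limma) in the 3 comparisons; filled points have an adjusted p under 0.05. In Eμ-Myc against WT 8 points are filled and lie to the right of 0, against Eμ-Myc no knockout point is filled, and against WT 5 knockout points are filled.

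Other markers moved with the same contrast, and their part in the rise of these genes was not tested. All 8 proliferation genes rose in Eμ-Myc, with sums of 1948 to 2627 against 424 to 525 in WT. All 10 T-cell markers fell (sums 166 to 233 against 749 to 4006), as did all 7 NK-cell markers, and 5 of 7 early B-cell markers rose while 1 fell. Of the plasma-cell markers 1 rose and 2 fell of 6, of the B-cell markers 3 of 10 fell, and of the platelet markers 1 of 4 tested fell. By limma 0 of 10 myeloid and 0 of 8 erythroid markers were called, with 1 and 0 at an unadjusted p under 0.05. Prdx4 read 75.6 to 102 in the WT libraries, whose proliferation sums were at most 525, and was highest in knockout library 3 at 470.3, where that sum was 3251. The WT libraries lie together on both measures, and the knockout libraries fall on both sides of the Eμ-Myc range on both.

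**Figure D3:**
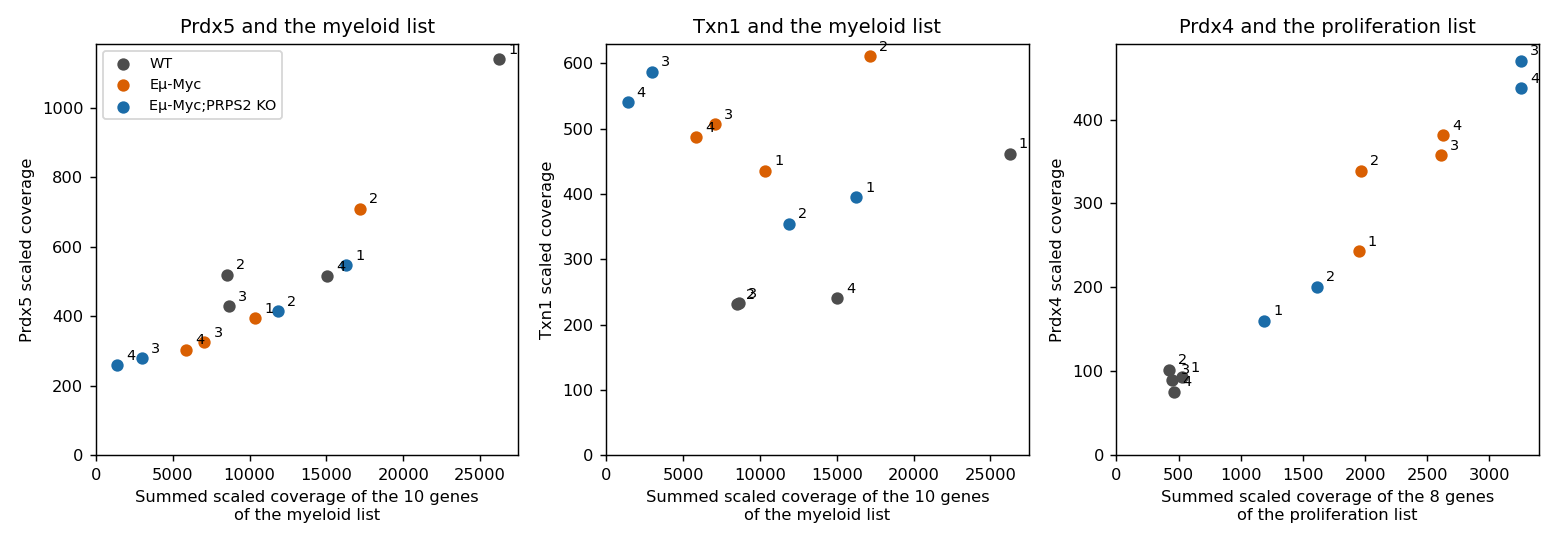
Scaled coverage of Prdx5 and Txn1 against the summed scaled coverage of 10 myeloid markers, and of Prdx4 against that of 8 proliferation genes, in 12 libraries (linear axes; points carry the replicate number). Prdx5 is highest where the myeloid sum is highest, 1139 at 26247 in WT library 1. Txn1 is 587 at a myeloid sum of 2994 in knockout library 3 and 461 at 26247 in WT library 1.

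The upstream sequences of the genes were read for 2 motifs. These were the E-box CACGTG, which Myc with Max binds, and the core of the antioxidant response element TGACNNNGC, which NRF2 binds. Both strands were searched. RefSeq promoters on GRCm38.p6, from 250 bases before to 50 after a start, were matched for 9 of the 10 genes, with 11 promoters in all, and that of Prdx6 is not used here. The E-box was in 1 of the 11, that of Prdx4, and in 7.15% of 32851 promoters of the same length. The antioxidant core was in a promoter of Prdx1 and in 1 of the 3 promoters of Txnrd1, and in 12.4% of all promoters. The 250 bases before the start are shown for these 3, 5′ to 3′ on the strand of the gene, with the match in capitals. That of Prdx4 is chrX:155338461-155338710 on the minus strand, and its match lies 52 to 47 bases before the start. That of Prdx1 is chr4:116685349-116685598 on the plus strand, with a match 133 to 125 bases before the start that also holds the AP-1 letters TGANTCA. That of Txnrd1 is chr10:82858956-82859205 on the plus strand, with a match 92 to 84 bases before the start.
Prdx4: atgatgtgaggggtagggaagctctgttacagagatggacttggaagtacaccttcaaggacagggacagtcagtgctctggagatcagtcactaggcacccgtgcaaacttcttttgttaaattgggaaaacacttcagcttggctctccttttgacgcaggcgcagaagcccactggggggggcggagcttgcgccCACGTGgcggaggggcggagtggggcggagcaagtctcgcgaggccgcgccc
Prdx1: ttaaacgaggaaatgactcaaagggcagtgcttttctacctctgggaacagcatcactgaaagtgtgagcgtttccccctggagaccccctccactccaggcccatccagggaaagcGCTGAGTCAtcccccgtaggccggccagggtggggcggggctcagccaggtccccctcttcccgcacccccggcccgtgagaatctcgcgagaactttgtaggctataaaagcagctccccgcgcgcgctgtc
Txnrd1: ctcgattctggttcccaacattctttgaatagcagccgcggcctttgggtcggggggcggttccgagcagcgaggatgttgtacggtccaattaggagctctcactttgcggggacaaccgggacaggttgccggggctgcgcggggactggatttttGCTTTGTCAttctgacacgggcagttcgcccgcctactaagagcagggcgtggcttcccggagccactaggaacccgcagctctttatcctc
A match is a run of letters, and binding was not measured.

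Loss of PRPS2 on the Eμ-Myc background gave no call among the 10 genes in limma's two-sided test with Benjamini-Hochberg adjustment. Only 1 of 12551 genes was called (0.00797%), Prps2 itself, and 0 of the 10 genes had an unadjusted p under 0.05, against 124 of all genes (0.988%). All 10 genes overlapped between the groups, where 1.43% of all genes did not. Log2 fold changes ran from -0.25 for Prdx2 to 0.16 for Txnrd1, with 9 of 10 below 0. Over all genes 39.6% of the estimates were above 0. The sign of Prdx3, Prdx6 and Txnrd2 turned under median-of-ratios and total coverage scaling. The intervals leave room for sizeable shifts: as a ratio to Eμ-Myc they ran from 0.487 to 1.58 for Prdx4, 0.595 to 1.46 for Prdx1, 0.688 to 1.29 for Txn2 and 0.882 to 1.41 for Txnrd1. A p that misses the threshold does not show equal levels.

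The knockout libraries were widely spread. Prdx1 read 365, 400.4, 795 and 746 in knockout libraries 1 to 4, Prdx1 in Eμ-Myc lying between 472 and 663. The first pair was thus below the whole Eμ-Myc range and the second pair above it. Prdx4 read 160.4, 201, 470.3 and 438 against 243 to 381 in Eμ-Myc, and Prdx3 141, 159, 304 and 281 against 186 to 231. Prdx2 (383, 419, 662 and 650.2) and Txn2 (217, 240.0, 349.8 and 349) had the low pair below the Eμ-Myc range and the high pair inside it. For 9 of the 10 genes knockout libraries 1 and 2 were both below 3 and 4, and for Prdx5 (547, 414, 279 and 259.7) both were above. Prdx6 ranged from 309.7 to 503, Txn1 from 354 to 587, Txnrd1 from 172 to 239 and Txnrd2 from 44.4 to 69.1.

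Proliferation sums were 1189 and 1611 in knockout libraries 1 and 2 and 3251 and 3257 in 3 and 4. Myeloid sums were 16269 and 11863 against 2994 and 1389. Over the whole group limma called 0 markers on the 9 lists against Eμ-Myc, with 3 of 4 platelet markers and 1 each of the B-cell, early B-cell and plasma-cell lists at an unadjusted p under 0.05. These sums and the Myc level differed between the pairs as the genes did, and their part was not tested. The pairs were chosen after seeing these data, and the genes follow the same split, so the fits without a pair are descriptions of how far the result depends on the libraries. Without libraries 3 and 4, none of the 10 genes was called against Eμ-Myc (all genes 3.67%). Prdx4 was then at -0.86 and Prdx1 at -0.61 (limma adjusted p = 0.0526 and 0.0614). Of the markers, all 10 of T cells, 5 of 7 of NK cells and 1 of 7 of early B cells were then called higher, 2 of 8 of proliferation lower, and 0 on the other 5 lists by limma, with 4 B-cell, 2 plasma-cell and 1 myeloid marker at an unadjusted p under 0.05. Without libraries 1 and 2, 9 of the 10 estimates were above 0 and 1 gene was called, Prdx3 at 0.46 (limma adjusted p = 0.0308), while 8.14% of all genes were called higher and 26.0% in either direction. Prdx4 was then at 0.48 and Prdx1 at 0.40 (adjusted p = 0.0898 and 0.0814). Of the markers, 5 of 8 of proliferation were then called higher. Those of T cells (9 of 10), NK cells (7 of 7), myeloid cells (9 of 10), platelets (4 of 4), B cells (4 of 10), early B cells (3 of 7) and plasma cells (4 of 6) were called lower, and 0 of 8 erythroid markers were called by limma, with 0 at an unadjusted p under 0.05.

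**Figure D4:**
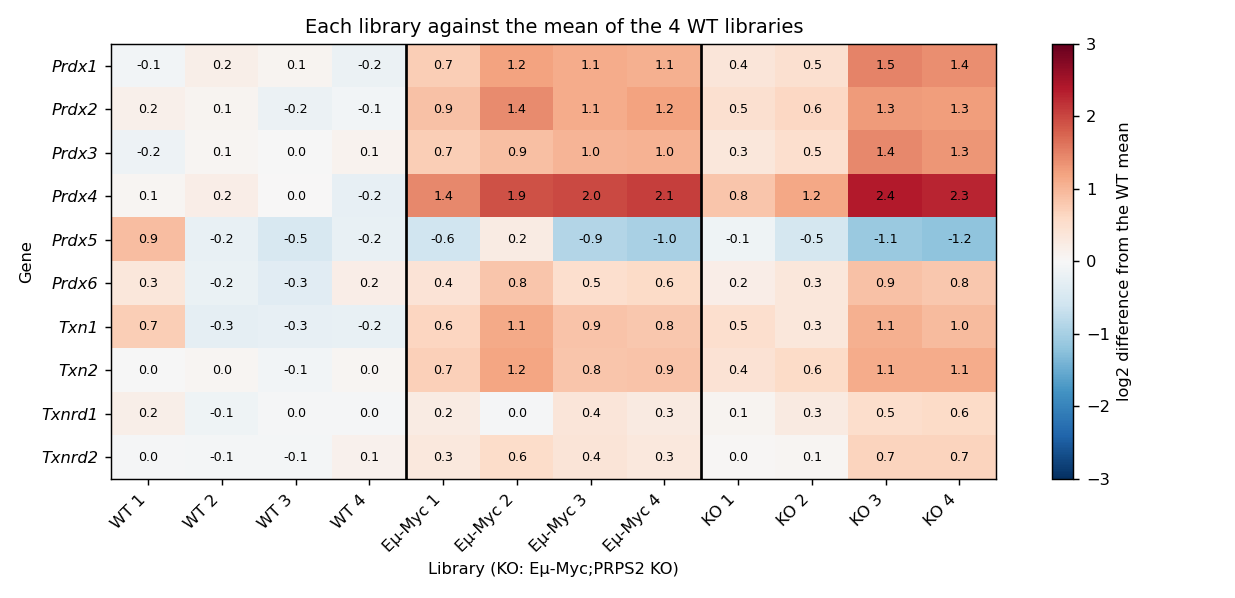
Log2 scaled coverage of the 10 genes in each library, as a difference from the mean of the 4 WT libraries (colour and printed value; KO, Eμ-Myc; PRPS2 KO). Knockout libraries 1 and 2 are paler than the Eμ-Myc libraries and 3 and 4 as dark or darker for most genes. In the Prdx5 row the knockout libraries lie below the WT mean, and 3 and 4 are furthest below it.

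Against WT, the knockout group had higher Prdx4, Txn2, Prdx2, Prdx3 and Prdx1. These 5 of the 10 genes were called and none fell, where 30.7% of 12692 genes were called and 19.7% as higher. With a block for replicate number, Prdx1, Prdx2 and Prdx3 lost their calls at the same folds (limma adjusted p = 0.0624, 0.0558 and 0.0520). Prdx5 was then called lower (log2 fold change -0.75, limma adjusted p = 0.0472), and calls over all genes went from 3900 to 1932. The same WT libraries served the Eμ-Myc contrast, so the 2 sets of values are not independent. Prdx4 rose 3.17-fold (1.80 to 5.59, limma adjusted p = 0.0189), Txn2 1.75-fold (1.32 to 2.33, adjusted p = 0.0204) and Prdx2 1.88-fold (1.35 to 2.61, adjusted p = 0.0223). Prdx3 rose 1.87-fold (adjusted p = 0.0377) and Prdx1 1.90-fold (adjusted p = 0.0398). Each of the 5 had every knockout library above every WT library, which 22.0% of all genes had. All 8 proliferation genes and 5 of 7 early B-cell markers rose in the same contrast and 4 of 5 platelet markers fell, as did 1 of 10 B-cell markers. By limma 0 of 10 T-cell, 0 of 7 NK-cell, 0 of 6 plasma-cell, 0 of 10 myeloid and 0 of 8 erythroid markers were called, with 6, 2, 0, 0 and 0 at an unadjusted p under 0.05. The part of these cells in the result was not tested. The other 5 members overlapped and did not pass the test. Their log2 fold changes were 0.72 for Txn1, 0.56 for Prdx6, 0.36 for Txnrd1 and for Txnrd2, and -0.75 for Prdx5 (limma adjusted p 0.0697 to 0.136).

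This count rests on single libraries. It was 0 without WT library 2, WT library 3 or knockout library 4, 1 without WT library 1 (Txn1, log2 fold change 0.97, limma adjusted p = 0.0374) and 1 without knockout library 3 (Prdx4). It was 2 without WT library 4 and 7 without knockout library 1, when Prdx6 and Txnrd1 were also called (0.68 and 0.45, adjusted p = 0.0344 and 0.0230). Calls over all genes moved likewise, from 3900 to between 774 and 6747. Across these fits the log2 fold change of Prdx4 stayed between 1.42 and 1.94 and that of Txn2 between 0.71 and 0.94. Without knockout libraries 3 and 4 the called genes were Prdx2, Prdx4 and Txn2 (0.55, 1.00 and 0.50, limma adjusted p = 0.0380, 0.0130 and 0.0270), where 11.4% of all genes were called and 8.63% as higher. Called markers were then 8 of 8 of proliferation and 1 of 4 tested of early B cells as higher and 1 of 10 of B cells as lower. Without libraries 1 and 2 all 10 were called, 9 as higher and Prdx5 as lower (-1.16, adjusted p = 0.0296), where 70.4% of all genes were called and 32.8% as higher. Called as higher were then 8 of 8 proliferation, 2 of 4 tested early B-cell and 1 of 7 erythroid markers. Called as lower were 10 of 10 T-cell, 7 of 7 NK-cell, 8 of 10 myeloid, 4 of 4 tested platelet, 4 of 10 B-cell, 4 of 6 plasma-cell and 1 of 4 early B-cell markers.

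The order of the levels changed with the genotype. In WT, Prdx5 led with a mean of 651 ± 328 (SD, n = 4), followed by Txn1 (291 ± 113), Prdx1 (286 ± 31.3), Prdx6 (276 ± 62.0) and Prdx2 (274 ± 27.7), and each of these overlapped its neighbour. Txnrd1 (162 ± 15.2) and Txn2 (161 ± 6.99) came next without overlapping Prdx2. Prdx3 (112 ± 9.0) and Prdx4 (90.2 ± 11.03) overlapped each other, and Txnrd2 (43.1 ± 2.88) was last. In Eμ-Myc the order was led by Prdx2 (616 ± 96.5), Prdx1 (587 ± 82.0) and Txn1 (509.9 ± 73.6), then Prdx5 at 434 ± 188, Prdx6 at 406 ± 53.3, Prdx4 at 330.2 ± 60.6 and Txn2 at 302 ± 45.3. Neighbours overlapped from Prdx2 down to Txn2. Prdx3 (213 ± 20.5) and Txnrd1 (187 ± 21.4) were below Txn2 without overlap, and Txnrd2 (56.9 ± 4.72) was again last. The knockout group had Prdx1 (577 ± 225), Prdx2 (528 ± 148) and Txn1 (469 ± 112) at the top, and all neighbours overlapped except Txnrd1 (209.7 ± 31.6) and Txnrd2 (56.6 ± 13.96). That order differed by pair: over libraries 1 and 2 Prdx5 had the highest mean (481), ahead of Prdx2 (401), Prdx1 (383) and Txn1 (375), and over libraries 3 and 4 Prdx1 led (770.5) and Prdx5 (269) was ahead of Txnrd1 and Txnrd2 only. Shares of the summed peroxiredoxins in the knockout group were 12.4% ± 3.61 for Prdx4 and 17.1% ± 9.63 for Prdx5. By library Prdx5 made up 28.7%, 21.4%, 9.25% and 9.12%, and Prdx4 8.42%, 10.4%, 15.6% and 15.4%, so the pairs split on both.

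Over the 12 libraries, Pearson r of log2 levels was 0.64 to 0.98 for the 36 pairs without Prdx5 (median 0.89) and -0.73 to -0.18 for the 9 pairs with Prdx5. All 12 points share the group differences and the split of the knockout libraries. After the group means were taken out, r was 0.35 to 0.97 for the pairs without Prdx5 and -0.63 to 0.38 for those with it, and this still holds the split of knockout libraries 1 and 2 from 3 and 4, in which 9 genes went one way and Prdx5 the other. Without libraries 3 and 4 the same r was -0.56 to 0.84 (median 0.24) for the 36 pairs and -0.60 to 0.87 (median 0.40) for the 9 with Prdx5. Without libraries 1 and 2 it was -0.71 to 0.85 (median 0.25) and -0.54 to 0.87 (median 0.41). Within groups the genes thus did not all vary together once either pair was left out. With the group differences kept, r without libraries 3 and 4 was 0.28 to 0.98 for the 36 pairs and -0.59 to 0.085 for the 9, and without libraries 1 and 2 it was 0.64 to 0.99 and -0.73 to -0.19. The genes most like each member over the 12 libraries were sought among 9664 genes. For Prdx1 they were Ube2e1 and Pmm1 (r = 0.997 and 0.996), for Prdx2 Parl and Cox5a (0.995 and 0.993), and for Prdx3 Rpf1 and Eef1e1 (0.996 each). Prdx4 was closest to Ak6 and Fen1 (0.996 each), a flap endonuclease of DNA replication in the latter case, and Txn2 to Slc25a39 and Tsfm (both 0.997), both mitochondrial proteins. Prdx5 was closest to S100a11 and Arpc1b (0.987 and 0.979), Prdx6 to Aprt and Acot7 (0.981 each) and Txn1 to Rab5if and Tkt (0.972 and 0.970). Txnrd1 was closest to Lin54 and Mmgt1 (0.967 and 0.954) and Txnrd2 to Cwc27 and Tarbp2 (0.973 and 0.971). For these 20 genes r was 0.929 to 0.997 without knockout libraries 3 and 4, when 4 of the 20 were still among the 2 closest, and 0.957 to 0.999 without libraries 1 and 2, when 11 were. These are descriptions, and libraries share depth, genotype, cell mix and the split of the knockout group.

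Other genes of the pathway are given by 4 lists for Eμ-Myc against WT, and differences between the lists were not tested. Of 41 genes, 40 were tested (Msrb3 was under the filter), 11 rose and 9 fell, a share of calls near that of all genes (55.7%). Of the regulators and recyclers, 6 of 8 fell and none rose, where 26.7% of all genes fell, and their median log2 fold change was -0.99. Txnip, the inhibitor that binds reduced thioredoxin, read 1580.0, 1056, 1078 and 1100.1 in WT and 599, 585, 428 and 420.1 in Eμ-Myc. No library overlapped, and Txnip fell by 1.24 on the log2 scale (SE 0.17, limma adjusted p = 3.36e-04). Srxn1, sulfiredoxin, restores overoxidised peroxiredoxins and was low throughout, at 2.87 to 7.96 in WT and 1.57 to 3.12 in Eμ-Myc. It fell by 1.08 (SE 0.32, adjusted p = 0.0188) with overlapping libraries. Sesn1, a stress-inducible sestrin, fell by 0.99 (adjusted p = 4.11e-04), and Map3k5, the kinase ASK1 that thioredoxin holds inactive, fell by 1.27 (adjusted p = 7.83e-04).

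The electron acceptors had 3 of 7 tested genes higher and none lower, where 29.0% of all genes were called higher. Rrm2 and Rrm1 are the subunits of ribonucleotide reductase, which thioredoxin reduces. Rrm2 read 61.5, 29.5, 31.6 and 35.0 in WT and 265, 273, 282 and 328 in Eμ-Myc, well apart. The log2 fold change of Rrm2 was 2.91 ± 0.21 (SE, limma adjusted p = 9.97e-06) and that of Rrm1 2.15 ± 0.13 (adjusted p = 4.19e-06). Apex1, a DNA repair enzyme also known as the redox factor Ref-1, rose by 1.96 (adjusted p = 1.01e-05). The methionine sulfoxide reductases Msra, Msrb1 and Msrb2 and the subunit Rrm2b were not called.

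Of the 16 thioredoxin-fold relatives, 4 rose and 2 fell, beside 29.0% higher and 26.7% lower of all genes. Txnl1, a thioredoxin of the proteasome, rose by 1.04 on the log2 scale from 49.7 ± 2.56 to 103 ± 9.20 (mean and SD of 4 libraries), with a limma adjusted p of 3.38e-05. Txnl4a, a spliceosome component, rose by 0.77, and Txndc17, a small cytosolic thioredoxin-like protein, by 0.51. Of the 9 genes of selenocysteine synthesis and insertion, 4 rose and 1 fell, again beside 29.0% and 26.7% of all genes. Sephs2, which makes the selenium donor, read 114, 66.8, 61.6 and 66.0 in WT and 112, 135, 134 and 131 in Eμ-Myc, where WT library 1 overlaps the lowest Eμ-Myc library. Its rise was 0.77 ± 0.19 (SE, adjusted p = 0.00668). Sephs1 rose by 1.13 (adjusted p = 3.74e-05) and the elongation factor Eefsec by 0.60, while Secisbp2l fell by 1.03 (adjusted p = 0.00102).

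**Figure D5:**
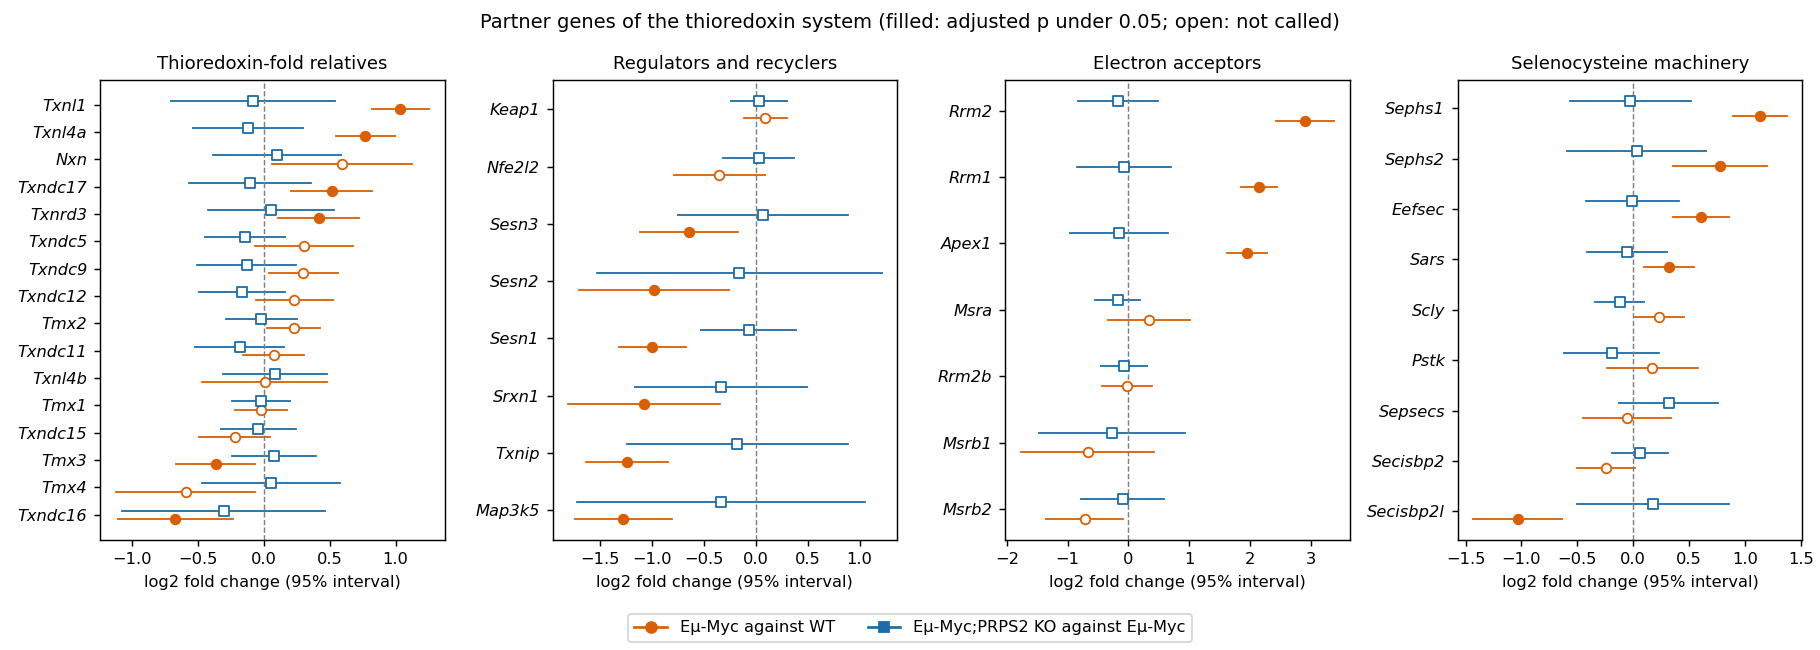
Log2 fold changes with 95% intervals (limma) of the 40 tested partner genes on 4 lists, for Eμ-Myc against WT (circles) and Eμ-Myc; PRPS2 KO against Eμ-Myc (squares); filled symbols have an adjusted p under 0.05. Of the circles 11 are filled above 0 and 9 below, and no square is filled.

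In the knockout group against Eμ-Myc, 0 of the 40 partner genes were called by limma, and 0 had an unadjusted p under 0.05. Txnip was at -0.18, Srxn1 at -0.33, Rrm2 at -0.18 and Sephs2 at 0.03. Txnip read 870.1, 753, 212 and 275 and Rrm2 152, 205, 355 and 369.5 in knockout libraries 1 to 4, so the pairs split here too. Without libraries 1 and 2, 8 of 40 partner genes were called, where 26.0% of all genes were, and without 3 and 4 none. Against WT 10 of 40 were called, 6 as higher and 4 as lower, beside 30.7% of all genes called, 19.7% as higher and 11.0% as lower. Rrm2 rose by 2.73 (limma adjusted p = 0.00848), Rrm1 by 2.08, Apex1 by 1.81, Sephs1 by 1.10, Txnl1 by 0.95 and Txnl4a by 0.65. Txnip fell by 1.42 (adjusted p = 0.0493), Srxn1 by 1.41 (0.0403), Sesn1 by 1.06 (0.0172) and Secisbp2l by 0.86 (0.0412). Sephs2 was at 0.80 and was not called (adjusted p = 0.0786). The number of partner genes called against WT ranged from 3 to 16 when 1 library was left out.

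Neighbouring genes limit the reading of Prdx2 and Prdx5. In the GENCODE annotation of GRCm38 (mm10), Prdx2 (chr8:84969587-84974834, plus strand) shares 177 exonic bases with Rnaseh2a and 173 with Junb, both on the opposite strand. Prdx5 (chr19:6906697-6910106, minus strand) shares 409 with Trmt112, again on opposite strands. The libraries were made with a directional kit, but whether counting used strand is not given in the sources used here, so reads of these stretches cannot be told apart. In Eμ-Myc against WT, Rnaseh2a rose by 1.59 on the log2 scale (limma adjusted p = 2.67e-05), Trmt112 rose by 0.46 (adjusted p = 0.0153), and Junb was at -0.63 and not called. Prdx5 was at -0.56 and not called, and the part of shared reads in these values was not tested. Prdx1 (chr4:116685544-116700822), Prdx3 (chr19:60864051-60874556), Prdx4 (chrX:155323918-155340754), Prdx6 (chr1:161240112-161251219), Txn1 (chr4:57943373-57956411) and Txn2 (chr15:77915047-77929006) overlap no other annotated gene. Txnrd1 (chr10:82833951-82897712) overlaps 3 genes without shared exonic bases, and Txnrd2 lies at chr16:18426384-18479073. Prdx6b, a close copy of Prdx6, is listed at 0 in all 12 libraries, and how reads common to both copies were assigned is not given in the sources used here.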

How the data were processed

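RNA of splenic B lymphocytes was sequenced from poly(A) directional libraries, per the labels. For each library the authors deposited a table of gene symbols with a coverage signal given to 1 decimal. The submitters' processing notes name mm10, DESeq and R 4.3.3 without a role; aligner, counting and annotation are not given in the sources used here. Coverage was nearly unrelated to exonic length (r = 0.081 over 12571 genes), so levels were read as per length.

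Libraries were scaled by unweighted trimmed means of log ratios (trimming 30% of the ratios and 5% of the mean values per end) over genes with coverage of at least 1 in both libraries. A gene was tested if 4 or more of the 8 libraries had a scaled coverage of 1 or more, with limma 3.58.1 in R 4.3.3 (trended, robust empirical Bayes, two-sided) on log2(scaled coverage + 0.5). Fold changes are on that scale and understate changes of low genes. A call is a p under 0.05 after Benjamini-Hochberg adjustment across every tested gene. The fit was tested on simulated data, and the outcome is not given here. Tables and figures used Python 3.11.15, numpy 2.4.6, pandas 2.3.3 and matplotlib 3.10.9.

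The 10 genes, the partner lists (thioredoxin-fold relatives, regulators and recyclers, electron acceptors, selenocysteine machinery) and the marker lists (proliferation, B cell, early B, T cell, plasma cell, NK cell, erythroid, platelet, myeloid) were chosen with earlier results of these data known. Named were the 10 genes, Prps2, Myc, up to 3 called partners per list and comparison with the smallest adjusted p, Txnip, Srxn1, Rrm2 and Sephs2, and the 2 genes most correlated with each member (mean scaled coverage at least 8, no Gm or Rik symbols). Markers of libraries that stood apart, overlapping genes, and partners named as not called were added after their values were seen. Replicate numbers 1 to 4 recur in each group. Deviations from group means of same-numbered libraries correlated across genes with r of 0.64, 0.19, 0.24 and 0.60 between the knockout and Eμ-Myc groups, all over 0.1, so a fit with a replicate block treats them as pairs. Libraries of different number were not compared, so these r cannot show that equal numbers belong together. The labels do not state a pairing. The p-values measure the spread between libraries labelled as biological replicates. Alternatives changed scaling, filter, pseudocount (0.1 and 2), libraries in the fit, block and each library in turn. Leaving out either pair of knockout libraries was added after seeing the data. A neighbouring gene is not reported here.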

Additional observations from a re-analysis of the deposited data

Results flagged for a closer look

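In each group of 4 libraries, the gap between the most extreme library and its neighbour was compared with the range of the group (Dixon's ratio, against its 95% critical value). Of 30 groups, 10 genes in 3 genotypes, 3 were past it, where chance gives about 1 in 20. Prdx5 was far higher in WT library 1 than in the other WT libraries, 1139 against 429 to 519 (ratio 0.874). Txn1 was highest in the same library, 461 against 231 to 240.0 (ratio 0.962). Txnrd2 was highest in WT library 4, 47.4 against 41.4 to 42.1 (ratio 0.873). WT library 1 also had the highest sum of myeloid markers, and its part in the Prdx5 and Txn1 values was not tested. WT library 4 had the highest WT sums of T-cell markers (4006 against 749 to 1386), NK-cell markers (1571 against 361 to 1097) and erythroid markers (872 against 79.8 to 169), and their part in the Txnrd2 value was not tested.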

How the results depend on the processing

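In Eμ-Myc against WT, 7 to 9 of the 10 genes were called over 16 alternatives, and Prdx1, Prdx2, Prdx3, Prdx4, Prdx6, Txn1 and Txn2 in all of them. Calls over all genes were 7088 in the main fit and 5597 with all 12 libraries in one fit, which gave the 7. They ran from 4878, under the filter of at least 10 in every library, to 7294. Total coverage scaling shifted the all-gene median by -0.14 (log2) and the share of calls that were higher from 52.1% to 42.0%, with 8 of the genes still called. Against Eμ-Myc, the knockout group had no call in the first 16 alternatives, and the replicate block left 0 called. Median-of-ratios and total coverage scaling turned Prdx3 to 0.020 and 0.024, Prdx6 to 0.025 and 0.029 and Txnrd2 to 0.0065 and 0.010. Leaving out 1 library gave ranges of -0.29 to 0.087 for Prdx1, -0.20 to 0.17 for Prdx3, -0.43 to 0.087 for Prdx4, -0.39 to 0.075 for Prdx5, -0.13 to 0.10 for Prdx6, -0.19 to 0.041 for Txn2 and -0.14 to 0.070 for Txnrd2. Without knockout libraries 1 and 2, 1 gene and 8 partners were called, and the values turned to 0.40 for Prdx1, 0.11 for Prdx2, 0.46 for Prdx3, 0.48 for Prdx4, 0.27 for Prdx6, 0.15 for Txn1, 0.22 for Txn2 and 0.27 for Txnrd2. Without libraries 3 and 4, Prdx5 turned to 0.22 and Txnrd1 to -0.022. Against WT, the knockout group had 8 of the genes and 16 partners called with all 12 libraries in one fit. Calls over all genes also rose in that fit, from 3900 to 6183. Leaving out 1 library gave 0 to 7 genes and 3 to 16 partners. Without knockout libraries 3 and 4 the counts were 3 and 5, and without 1 and 2 they were 10 and 29. Deviations of same-numbered libraries correlated with those of WT at r of -0.41 to 0.39 for the knockout group and -0.098 to 0.25 for Eμ-Myc. The replicate block gave 3 genes (Prdx4 and Txn2 as higher, Prdx5 as lower) and 5 partners, from 3900 to 1932 calls over all genes. The cause of these changes was not tested. Read depth is unknown, so the libraries alone set the precision.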
